A study of Mus musculus with 38 samples.

Results

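The phagocyte NADPH oxidase is a membrane enzyme that passes electrons from NADPH to oxygen and so makes superoxide. Its catalytic core sits in the membrane as a pair of proteins, encoded by Cybb (the electron-carrying chain) and Cyba (its stabilizing partner). At rest the other subunits stay in the cytosol. On activation, the organizer encoded by Ncf1, the regulatory subunit encoded by Ncf4 and a Rac GTPase, in blood cells mostly Rac2, move to the membrane core and switch it on. In the brain the enzyme is best known from microglia, the resident macrophages, which use it during the oxidative burst. The genes described here are 5 subunits, Cyba, Cybb, Ncf1, Ncf4 and Rac2, chosen by name from the 48709 genes counted. All 5 were found, and all 5 passed the filter on low counts in each comparison.

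The 38 libraries each came from the hippocampus of a single mouse on a C57BL/6 background. APPPS1ΔE9 mice carry transgenes for a mutant amyloid precursor protein and for presenilin 1 lacking exon 9, and wild-type (WT) mice were their controls. Chow held either anle138b, a diphenylpyrazole compound directed at protein aggregates, or no compound (placebo). In the pre-plaque cohort, analysed at 6 months of age, each of the 4 combinations of genotype and chow had 4 mice. In the post-plaque cohort, analysed at 10 months of age, there were 5 placebo-fed WT, 5 anle138b-fed WT, 5 placebo-fed APPPS1ΔE9 and 7 anle138b-fed APPPS1ΔE9 mice. For the 4 placebo-fed WT mice of the pre-plaque cohort the titles say WT and the genotype field says transgenic. The titles were followed.

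Total counts per mouse ranged from 15847985 to 31895808, with a median of 24530658. Levels are given as CPM, the count scaled to library size after TMM normalisation. App, which the transgene raises, separated the genotypes in each group, with means of 3551 to 4068 CPM in APPPS1ΔE9 and of 1626 to 1709 CPM in WT mice. In the library labelled pre-plaque, WT, anle138b, replicate 2, 0.737% of counts lay on annotated pseudogenes, against 0.101% to 0.134% in the other 37 libraries. It also held 173 genes at 10 CPM or more that were under 1 CPM in each other library, 153 of them pseudogenes, while no other library held more than 1 such gene. The pre-plaque Rac2 and Ncf4 estimates that rest on it are also given without it. Xist RNA, which marks an inactive X chromosome, was at 1160 to 1437 CPM in 12 libraries and at most 5.35 CPM in the other 26. Summed Y-linked RNA was at most 1.88 CPM in those 12 and at least 171 CPM in the other 26. By these RNAs the 12 libraries are female, although the study describes male mice. Of these 12, 11 were WT and 1 was APPPS1ΔE9, so sex and genotype went partly together. The subunit estimates between genotypes in the post-plaque cohort, that with both chows in the pre-plaque cohort, and the list counts are therefore also given without these 12. Interaction tests were run with them only. The lane numbers in the titles put post-plaque WT mice on lanes 3 and 4 and post-plaque APPPS1ΔE9 mice on lanes 5 and 6. Pre-plaque placebo-fed WT mice were all on lane 4, placebo-fed APPPS1ΔE9 mice all on lane 5 and anle138b-fed APPPS1ΔE9 mice all on lane 6, while anle138b-fed WT mice were on lanes 4 and 5. Lane and genotype therefore cannot be told apart in the post-plaque cohort or within either chow of the pre-plaque cohort, where the genotypes shared no lane, and lane and chow cannot be told apart in pre-plaque APPPS1ΔE9 mice. Lane and chow also went largely together in the post-plaque cohort. Of its APPPS1ΔE9 mice, 5 fed placebo and 1 fed anle138b were on lane 5, and 6 fed anle138b on lane 6. Of its WT mice, 4 fed placebo were on lane 3, and 1 fed placebo and 5 fed anle138b on lane 4.

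The 5 genes lie on 4 chromosomes (GRCm38, GENCODE M21 annotation). Cyba (ENSMUSG00000006519) is on the minus strand at chr8:122424776-122432930 and Cybb (ENSMUSG00000015340) on the minus strand at chrX:9435252-9487771. Ncf1 (ENSMUSG00000015950) is on the minus strand at chr5:134220053-134229625, and 408 of its 3663 exon bases also belong to Gtf2ird2 on the opposite strand. Because the strand setting of the counting is not given, reads in those bases may come from either gene. In addition 7.45% of the 50-base stretches of Ncf1 transcripts also occur in transcripts of Gtf2ird2 or Zhx3, so its values are uncertain to that extent. Ncf4 (ENSMUSG00000071715) is on the plus strand at chr15:78244801-78262580, and Rac2 (ENSMUSG00000033220) is on the minus strand at chr15:78559167-78572783. Rac2 shared no stretch of 50 bases with Rac1 or Rac3 in the annotated transcripts. Of the 50-base stretches of Cyba 2.39%, and of those of Rac2 1.29%, also occur in transcripts of other genes. For Cybb and Ncf4 the share was 0%.

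RefSeq promoter entries (GRCm38.p6) were matched for 3 of the 5 genes, Cyba, Cybb and Ncf1, which are also the 3 that passed the test in the post-plaque mice below. The 250 bases before each start are printed 5′ to 3′ on the gene's strand so that the upstream sequence of these genes can be compared. They cover chr8:122432941-122433190 for Cyba, chrX:9469325-9469574 for Cybb and chr5:134229626-134229875 for Ncf1, all on the minus strand, and none overlaps an annotated exon. The RefSeq start of Cybb lies inside the span that GENCODE gives the gene. Capitals mark a match to any of 3 motifs searched on both strands. They are GAGGAA, a core bound by ETS factors, TGANTCA, and the composite ETS and interferon-regulatory-factor element, GGAA and GAAA with any 2 bases between them. TGANTCA is a loose form of the Fos and Jun site, which has C or G as its middle base, and it allows any base there.
Cyba: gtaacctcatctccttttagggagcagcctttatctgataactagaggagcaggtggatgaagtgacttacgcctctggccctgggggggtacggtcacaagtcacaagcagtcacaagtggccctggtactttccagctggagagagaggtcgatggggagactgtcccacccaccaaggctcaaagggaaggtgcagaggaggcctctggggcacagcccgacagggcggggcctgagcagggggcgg
Cybb: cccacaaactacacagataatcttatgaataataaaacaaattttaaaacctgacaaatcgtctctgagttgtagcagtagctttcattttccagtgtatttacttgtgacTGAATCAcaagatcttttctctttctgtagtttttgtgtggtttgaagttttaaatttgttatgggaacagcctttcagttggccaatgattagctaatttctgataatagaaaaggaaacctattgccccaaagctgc
Ncf1: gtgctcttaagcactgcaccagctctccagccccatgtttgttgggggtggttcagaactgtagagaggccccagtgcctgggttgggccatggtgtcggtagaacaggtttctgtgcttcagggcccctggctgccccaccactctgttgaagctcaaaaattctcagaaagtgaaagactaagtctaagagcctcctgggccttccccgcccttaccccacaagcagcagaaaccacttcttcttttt
The only match was TGANTCA in the Cybb window, 133 to 139 bases before the start, with A as its middle base and so not the strict Fos and Jun site. That motif occurs in 6.75% of the 32851 promoter windows of the same length, GAGGAA in 23.25% and the composite element in 2.3%. The windows differ in base composition, with 34% G and C bases for Cybb, 54.4% for Ncf1 and 60% for Cyba. A match is a description of the letters and not of a bound site.

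All 5 genes were read at low depth in whole hippocampus. Raw counts per mouse ran from 89 to 271 for Cyba, 104 to 321 for Ncf1, 33 to 159 for Rac2, 15 to 62 for Cybb and 9 to 49 for Ncf4. Counting error alone, as an SD at the median count, was 7.32% for Ncf1 and 7.48% for Cyba, 11.9% for Rac2, 18% for Cybb and 19.6% for Ncf4. The order of the levels was taken per kilobase of annotated exon, since the genes differ in length. On that scale Cyba was highest, at 6.83 ± 1.5 CPM per kilobase (SD, n = 38). Ncf1 followed at 2.24 ± 0.540, Rac2 at 0.968 ± 0.363, Ncf4 at 0.526 ± 0.164 and Cybb at 0.248 ± 0.0945 CPM per kilobase. Cyba exceeded Ncf1 in 38 of 38 mice. Each of the next pairs of neighbours kept its order in 37 of 38 mice. The mRNA of the catalytic chain was thus the least abundant per length of the 5, and that of its membrane partner the most abundant.

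**Figure D1:**
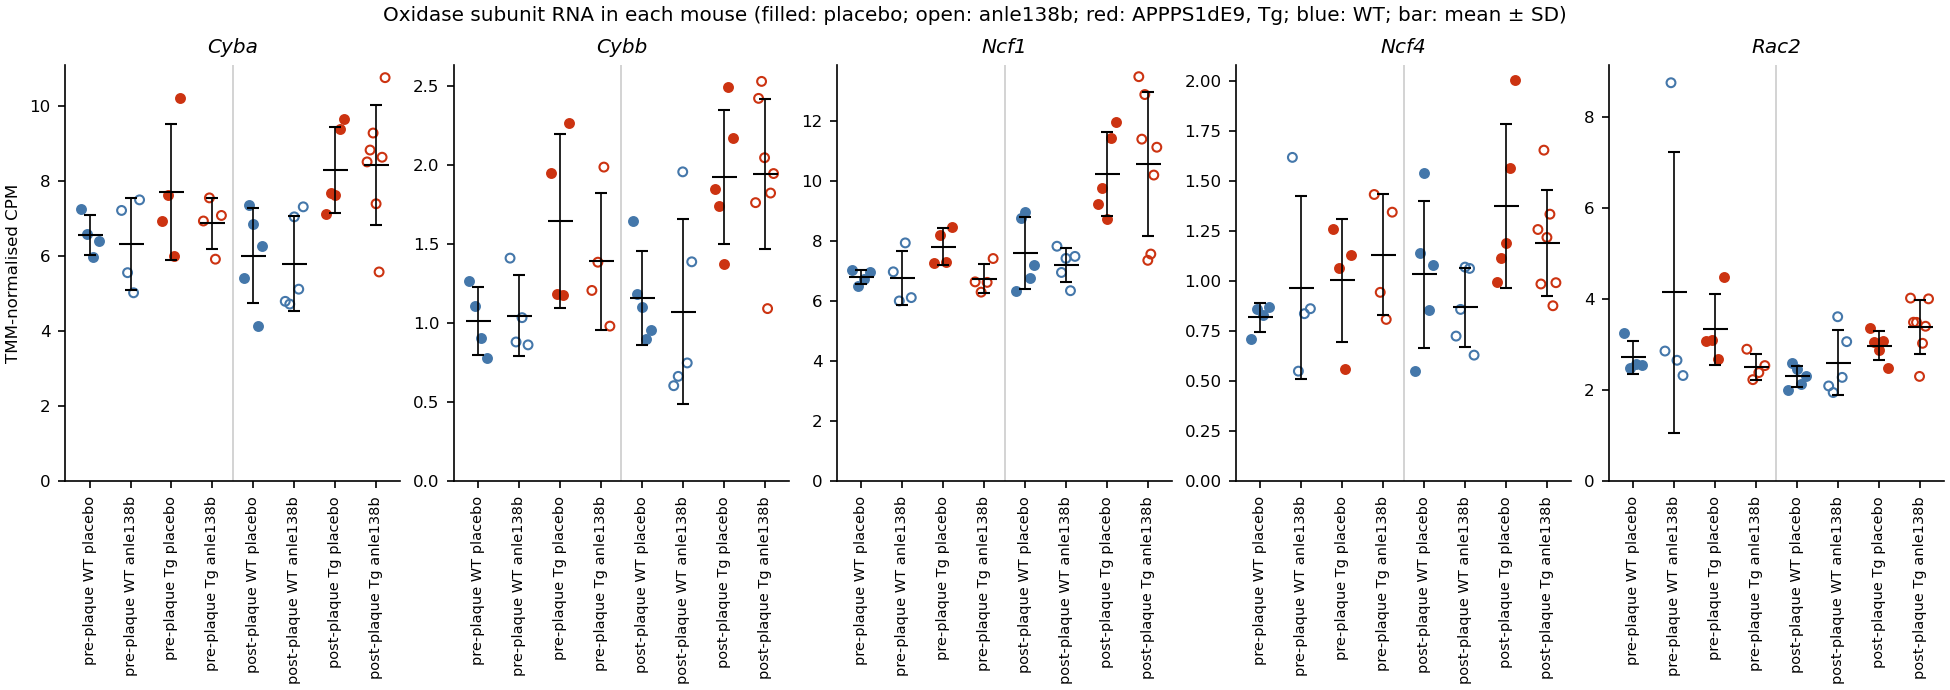
TMM-normalised CPM (vertical axis, from 0) of each subunit gene in each of the 38 mice, by cohort, genotype and chow (horizontal axis). Points are mice and bars are the group mean ± SD. In the post-plaque cohort 10 of 12 APPPS1ΔE9 mice lie above every WT mouse for Cyba and 9 of 12 for Ncf1, and in the pre-plaque cohort a single WT library stands at 8.76 CPM of Rac2.

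The first question was whether the subunits differ between genotypes once plaques are present. In the post-plaque cohort, with both chows in the same fit (12 APPPS1ΔE9 and 10 WT mice), Cyba, Cybb and Ncf1 rose in APPPS1ΔE9 mice, by about 1.4 to 1.7 times. That is 3 of the 5 genes at an adjusted p under 0.1 (edgeR's quasi-likelihood test, Benjamini-Hochberg adjustment over 17668 genes), where 1.43% of all genes tested were called higher and 1.56% in either direction. At an unadjusted p under 0.05 there were 5 of the 5, and 7.07% of all genes. The estimates of Ncf4 and Rac2 were also above 0 but did not pass. The median log2 fold change was 0.48 over the 5 genes and -0.004 over all genes tested. The members' tissue level rises both with more cells and with more RNA per cell, and in bulk samples these cannot be told apart.

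Among the membrane subunits, Cyba ranged from 4.15 to 7.37 CPM in post-plaque WT mice, with a median of 5.85. In post-plaque APPPS1ΔE9 mice it ranged from 5.58 to 10.8 CPM, with a median of 8.58. The groups overlapped through 2 APPPS1ΔE9 mice, while 10 of 12 lay above every WT mouse. The fold was 1.41 (95% CI 1.19 to 1.66, edgeR adjusted p = 0.027). Cybb ranged from 0.605 to 1.96 CPM in WT (median 1.03) and from 1.09 to 2.53 CPM in APPPS1ΔE9 mice (median 1.90). All 12 APPPS1ΔE9 mice were above the WT median, and 5 were above every WT mouse. Its fold of 1.73 (95% CI 1.32 to 2.28, edgeR adjusted p = 0.037) was the highest estimate of the 5, with an interval that contains the estimates of Cyba and Ncf1.

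Among the cytosolic subunits, Ncf1 ranged from 6.34 to 8.96 CPM in WT (median 7.30) and from 7.35 to 13.5 CPM in APPPS1ΔE9 mice (median 10.7). All 12 APPPS1ΔE9 mice exceeded the WT median and 9 exceeded every WT mouse. The fold was 1.40 (95% CI 1.21 to 1.61, edgeR adjusted p = 0.0097). Ncf4 ranged from 0.549 to 1.54 CPM in WT and from 0.877 to 2.0 CPM in APPPS1ΔE9 mice, with 3 of 12 above every WT mouse. Its fold was 1.32 (95% CI 1.05 to 1.67, edgeR adjusted p = 0.52). Rac2, the GTPase, ranged from 1.95 to 3.62 CPM in WT and from 2.31 to 4.03 CPM in APPPS1ΔE9 mice, with 2 of 12 above every WT mouse. Its fold was 1.29 (95% CI 1.10 to 1.5, edgeR adjusted p = 0.17). DESeq2 called 4 of the 5, adding Rac2 at an adjusted p of 0.094, beside 322 of all 17668 genes.

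Without the libraries that hold Xist RNA, 11 APPPS1ΔE9 and 4 WT mice remained and 1 of the 5 passed by edgeR, where 0.778% of all genes did. With all mice 1.56% of all genes were called. This refit was chosen to be examined after the data were seen. Cybb then had a log2 fold change of 1.16 (edgeR adjusted p = 0.022), against 0.79 with all mice. Cyba had 0.53 (edgeR adjusted p = 0.26) and Ncf1 0.40 (edgeR adjusted p = 0.58), against 0.49 and 0.48 with all mice, Ncf4 had 0.39 and Rac2 0.50. Among the 10 post-plaque WT mice Cybb ranged from 0.749 to 1.96 CPM (median 1.24) in the 6 libraries with Xist RNA and from 0.605 to 1.18 CPM (median 0.81) in the other 4. These ranges overlapped, and the medians of Cyba (6.15 against 5.53 CPM) and Rac2 (2.37 against 2.21 CPM) were also higher in the 6 libraries.

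**Figure D2:**
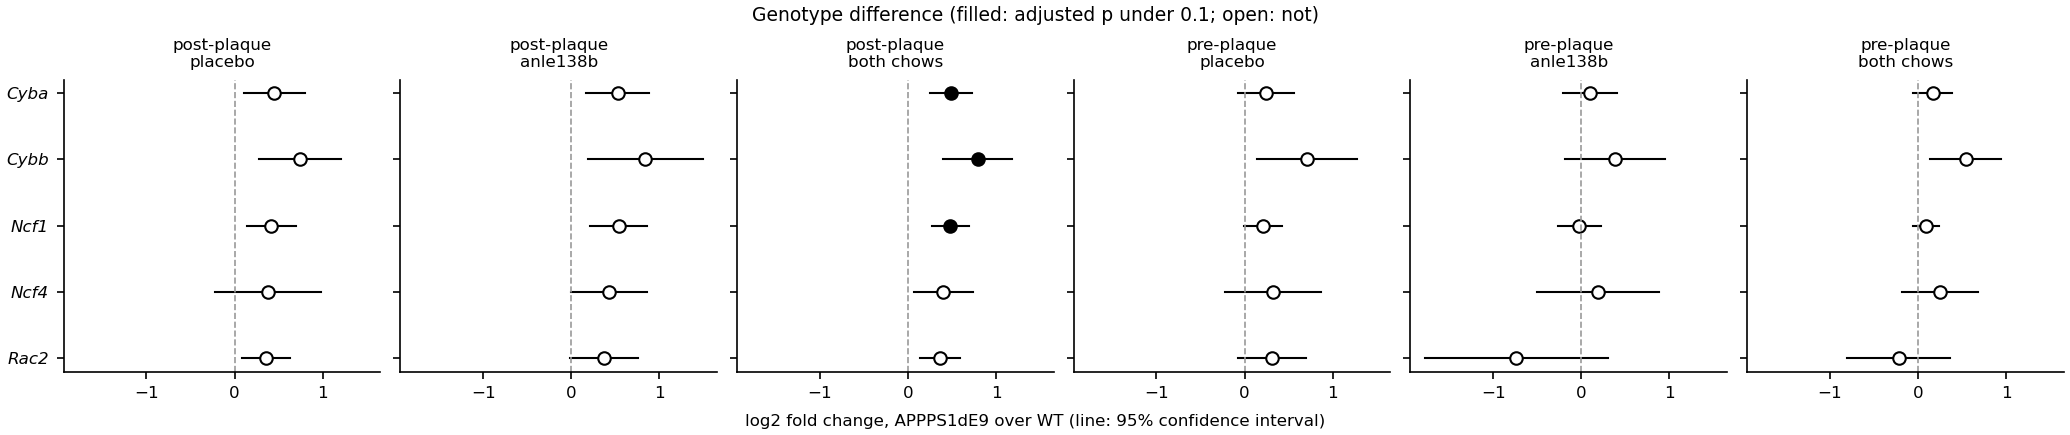
Log2 fold change of APPPS1ΔE9 over WT (horizontal axis) for each subunit, with 95% confidence intervals as lines, in each cohort by chow and with both chows. Filled points passed an adjusted p under 0.1, which only Cyba, Cybb and Ncf1 did, in the post-plaque comparison of both chows, and the Rac2 estimates of -0.73 and -0.22 in the pre-plaque cohort include the library that stands apart.

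With placebo chow alone, 5 post-plaque APPPS1ΔE9 mice were compared with 5 WT mice. By edgeR 0 of the 5 genes passed an adjusted p under 0.1, where 0.324% of all genes did. At an unadjusted p under 0.05 there were 4, against 4.1% of all genes, and DESeq2 called 0 at an adjusted p under 0.1. Cyba was at 4.15, 5.43, 6.27, 6.86 and 7.37 CPM in WT mice and at 7.13, 7.64, 7.70, 9.40 and 9.65 CPM in APPPS1ΔE9 mice. The genotypes overlapped by a single mouse on each side. Ncf1 was at 6.34, 6.76, 7.19, 8.75 and 8.96 CPM in WT mice and at 8.74, 9.24, 9.76, 11.4 and 11.9 CPM in APPPS1ΔE9 mice. Again only the lowest APPPS1ΔE9 mouse fell within the WT range. Cybb was at 0.899, 0.955, 1.10, 1.18 and 1.65 CPM in WT and at 1.37, 1.74, 1.85, 2.17 and 2.49 CPM in APPPS1ΔE9 mice. All 5 log2 fold changes were above 0, from 0.35 for Rac2 to 0.74 for Cybb. Without the libraries that hold Xist RNA (5 against 2 mice) Cybb was at 0.84 and Cyba, Ncf1, Ncf4 and Rac2 between 0.27 and 0.36.

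With anle138b chow, 7 post-plaque APPPS1ΔE9 and 5 WT mice gave estimates of like size. By edgeR 0 of the 5 genes passed an adjusted p under 0.1, where 0.723% of all genes did, with 4 at an unadjusted p under 0.05 (5.78% of all genes). DESeq2 called 1, Ncf1, beside 189 of all 17151 genes. Log2 fold changes ran from 0.37 for Rac2 to 0.84 for Cybb. Ncf1 reached 7.35 to 13.5 CPM (median 11.1) in APPPS1ΔE9 and 6.34 to 7.82 CPM (median 7.42) in WT mice. Without the libraries that hold Xist RNA (6 against 2 mice) 0 of the 5 passed by edgeR, beside 51 of all 17667 genes. The log2 fold changes then ran from 0.45 for Ncf1 to 1.52 for Cybb. The genotype difference was not shown to depend on chow: in the interaction test 0 of the 5 genes and 0% of all genes passed by edgeR. There were 0 of the 5 at an unadjusted p under 0.05 (2.3% of all genes) and 0 by DESeq2, beside 2 of all 17668 genes. The interaction estimates of the 5 genes ran from 0.02 to 0.13 on the log2 scale, and their 95% intervals reached from -0.71 to 0.91.

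In the pre-plaque cohort 0 of the 5 genes passed by edgeR with both chows (8 against 8 mice), where 0.172% of all genes did. There was 1 at an unadjusted p under 0.05 (10.5% of all genes) and 0 by DESeq2, beside 118 of all 17404 genes. Cybb ranged from 0.779 to 1.41 CPM in WT mice and from 0.981 to 2.26 CPM in APPPS1ΔE9 mice. All 8 APPPS1ΔE9 mice were above the WT median and 3 were above every WT mouse. Its log2 fold change was 0.54 (95% CI 0.14 to 0.94, edgeR adjusted p = 0.38), and 0.53 without the library that stands apart. Cyba (0.17), Ncf1 (0.09) and Ncf4 (0.25) had intervals that included 0. Rac2 was at -0.22. Without the library that stands apart Rac2 was at 0.14 and Ncf4 at 0.17. Without the libraries that hold Xist RNA (8 against 3 mice), 0 of the 5 passed by edgeR, where 0.0253% of all genes did. Cyba was then at 0.37, Cybb at 0.65, Ncf1 at 0.04, Ncf4 at 0.53 and Rac2 at -0.69. Of those 3 WT mice 1 is the library that stands apart. Without it as well (8 against 2 mice), Cyba was at 0.42, Cybb at 0.66, Ncf1 at -0.01, Ncf4 at 0.37 and Rac2 at 0.16. There 0 of the 5 passed by edgeR, beside 4 of all 18507 genes.

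Within placebo chow 0 of the 5 genes passed in the pre-plaque mice by edgeR, where 0.0715% of all genes did, with 1 at an unadjusted p under 0.05 (11.1% of all genes), while DESeq2's own filter left no adjusted p for these genes. Cybb was at 0.779, 0.906, 1.11 and 1.27 CPM in WT and at 1.18, 1.18, 1.95 and 2.26 CPM in APPPS1ΔE9 mice. The genotypes overlapped through the highest WT mouse, and the log2 fold change was 0.71 (95% CI 0.14 to 1.27). Within anle138b chow 0 of the 5 passed by edgeR, where 0.047% of all genes did, with 0 at an unadjusted p under 0.05 (5.64% of all genes). DESeq2 called 0 of the 5, beside 47 of all 17033 genes. There Cyba, Cybb, Ncf1 and Ncf4 had log2 fold changes of 0.10, 0.39, -0.02 and 0.19. Cybb was at 0.17 without APPPS1ΔE9 replicate 3. Rac2 was at -0.73, and at -0.06 without the library that stands apart.

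The change of the genotype difference from the pre-plaque to the post-plaque cohort was tested directly. With placebo chow 0 of the 5 genes passed by edgeR, where 0% of all genes did, with 0 at an unadjusted p under 0.05 (6.16% of all genes). DESeq2 called 0 of the 5, beside 16 of all 17681 genes, and left 1 of the 5 without an adjusted p. With anle138b chow 0 of the 5 passed by edgeR, where 0.028% of all genes did, and 0 by DESeq2, beside 44 of all 17875 genes. At an unadjusted p under 0.05 there were 2 (5.84% of all genes). These were Ncf1, whose genotype difference was higher by 0.57 on the log2 scale in the post-plaque mice (95% CI 0.13 to 1.0, edgeR adjusted p = 0.80), and Rac2 (1.11, edgeR adjusted p = 0.81). Without the library that stands apart, Ncf1 was at 0.61 and Rac2 at 0.44.

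Whether anle138b chow changed the subunits was asked within each genotype. In post-plaque APPPS1ΔE9 mice (7 against 5) 0 of the 5 genes passed by edgeR, where 0% of all genes did. There were 0 at an unadjusted p under 0.05 (1.48% of all genes) and 0 by DESeq2, beside 0 of all 17110 genes. Cyba was at 8.43 ± 1.61 CPM with anle138b (SD, n = 7) and 8.30 ± 1.14 CPM with placebo (SD, n = 5). Cybb was at 1.94 ± 0.475 and 1.92 ± 0.426 CPM, and Ncf1 at 10.6 ± 2.39 and 10.2 ± 1.39 CPM, in the same order. These means lay within the spread between mice. The log2 differences had 95% intervals of -0.28 to 0.33 for Cyba, -0.42 to 0.45 for Cybb, -0.29 to 0.39 for Ncf1, -0.67 to 0.24 for Ncf4 and -0.11 to 0.49 for Rac2. In post-plaque WT mice (5 against 5) 0 of the 5 passed by edgeR, where 0% of all genes did, with 0 at an unadjusted p under 0.05 (1.25% of all genes). DESeq2 called 0, beside 0 of all 16986 genes, and log2 differences ran from -0.26 to 0.17.

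In pre-plaque APPPS1ΔE9 mice (4 against 4) 0 of the 5 genes passed by edgeR, where 0.0529% of all genes did. DESeq2 called 0, beside 204 of all 17009 genes, and its own filter left 1 of the 5 without an adjusted p. At an unadjusted p under 0.05 by edgeR there were 2 (13.1% of all genes). Ncf1 was at 6.30, 6.62, 6.64 and 7.41 CPM with anle138b and at 7.27, 7.29, 8.19 and 8.46 CPM with placebo. The chows overlapped through the highest anle138b mouse, and the log2 difference was -0.23 (95% CI -0.44 to -0.02, edgeR adjusted p = 0.36). Rac2 was at 2.23, 2.39, 2.54 and 2.9 CPM with anle138b and at 2.69, 3.09, 3.11 and 4.48 CPM with placebo. Its log2 difference was -0.43 (95% CI -0.81 to -0.05, edgeR adjusted p = 0.35), and -0.26 without placebo replicate 4, the mouse at 4.48 CPM. The chows overlapped there too, through the highest anle138b mouse. In pre-plaque WT mice (4 against 4) 0 of the 5 passed by edgeR, where 0% of all genes did. There were 0 at an unadjusted p under 0.05 (1.85% of all genes) and 0 by DESeq2, beside 0 of all 16766 genes. Rac2 had the highest estimate there, 0.62, and -0.05 without the library that stands apart. The genotype by chow interaction in the pre-plaque cohort gave 0 of the 5 by edgeR, where 0% of all genes passed, with 0 at an unadjusted p under 0.05 (7.99% of all genes), while DESeq2's own filter left no adjusted p for them. Its lowest estimate was -1.04 for Rac2, and -0.37 without the library that stands apart.

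**Figure D3:**
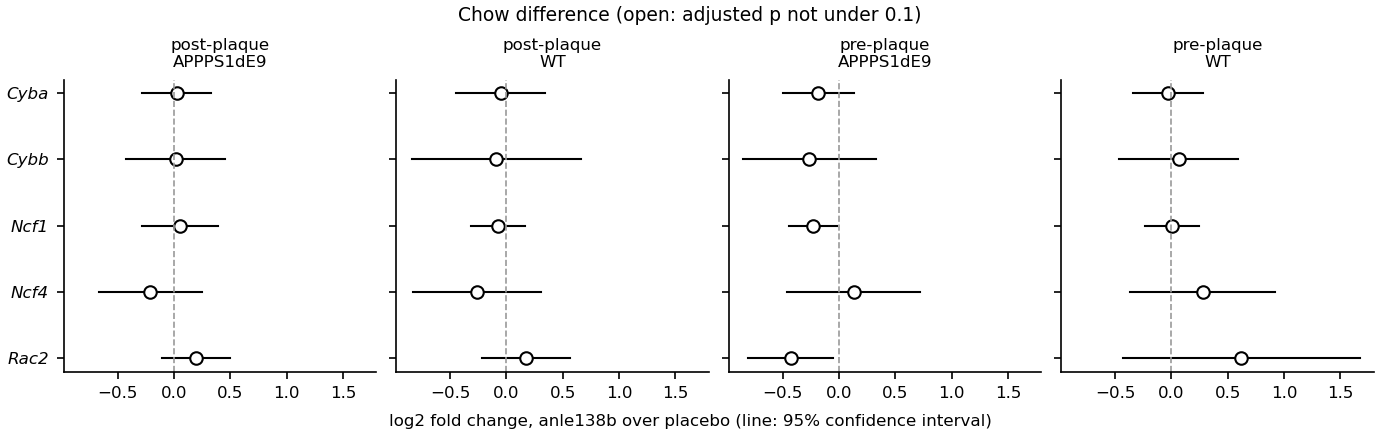
Log2 fold change of anle138b over placebo (horizontal axis) for each subunit within each genotype and cohort, with 95% confidence intervals as lines. All points are open, since none passed an adjusted p under 0.1, and the widest interval, for Rac2 in pre-plaque WT mice (-0.43 to 1.67), includes the library that stands apart.

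Of the 5 genes, the library that stands apart moved the Rac2 estimates most. In pre-plaque WT mice fed anle138b, Rac2 was at 2.33, 2.66 and 2.86 CPM in 3 mice and at 8.76 CPM in replicate 2. That library had 159 counts of Rac2 in a total of 17764531. Its values of Cyba (5.56 CPM), Cybb (0.881), Ncf1 (6.00) and Ncf4 (0.551) were the lowest or the next to lowest of the group. Leaving it out also moved the Ncf4 estimate, from 0.19 to 0.02 between genotypes and from 0.28 to 0.45 between chows in WT mice. Its summed pan-macrophage and neutrophil markers were 271 and 8.21 CPM, against 313 to 336 and 9.11 to 15 CPM in the other 3 mice. The part of its pseudogene counts in the Rac2 value was not tested.

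**Figure D4:**
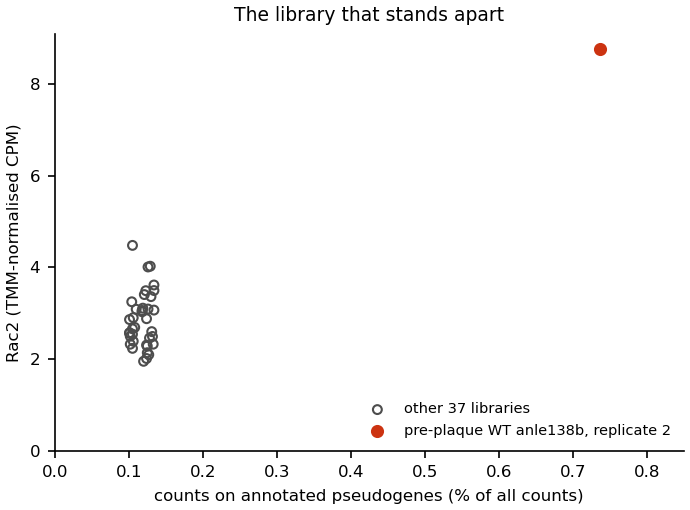
Rac2 (vertical axis, TMM-normalised CPM) against the percentage of each library's counts on annotated pseudogenes (horizontal axis), for 38 libraries. The filled point, at 0.737% and 8.76 CPM, is replicate 2 of the pre-plaque WT mice fed anle138b, and the other 37 lie between 0.101% and 0.134%.

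Relatives of the subunits were examined in the same post-plaque comparison of both chows, and the 4 described here that were tested did not pass by edgeR. Rac1, the GTPase found in most cells, had a log2 fold change of 0.03, Rac3, its neuronal relative, -0.08, Cybc1, a chaperone of the membrane core, 0.08, and Noxo1, the organizer of a non-phagocyte oxidase, -0.17. Rac1 was also far more abundant, at 39.5 ± 1.98 CPM per kilobase over the 38 mice against 0.968 ± 0.363 for Rac2 (SD). The catalytic chains of the other oxidases were near the limit of detection, with at most 11 counts of Nox1, 3 of Nox3, 16 of Nox4, 10 of Duox1 and 36 of Duox2 in any mouse, and Noxa1 had at most 1 count.

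Genes that act upstream of the oxidase were examined as a list of 26 kinases, exchange factors, integrins and ion channels. In the post-plaque comparison of both chows, 9 of the 23 tested rose and 0 fell, beside 1.43% of all genes called higher, with a median log2 fold change of 0.36. With the Xist libraries left out 6 of 24 rose, Hvcn1, Itgb2 and Btk among them, beside 0.778% of all genes called in either direction. Hvcn1, the proton channel that offsets the charge moved by the oxidase, rose 1.94 times (95% CI 1.55 to 2.43, edgeR adjusted p = 0.00062). Itgb2, the shared beta chain of leukocyte integrins, rose 1.82 times (95% CI 1.55 to 2.14, edgeR adjusted p = 3.5e-05). The tyrosine kinase gene Btk rose 1.55 times and Vav1, an exchange factor that loads Rac with GTP, 1.46 times. Of 30 genes for the handling of superoxide and peroxide, 1 rose, Hmox1, which encodes the inducible haem oxygenase (log2 fold change 0.43, edgeR adjusted p = 0.067), and the list's median was 0.01. A count of 1 of 30 is close to the 1.43% of all genes called higher, and it was 0 by edgeR without the libraries that hold Xist RNA. Of 13 genes that supply NADPH, 0 passed by edgeR and the median was 0.05.

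**Figure D5:**
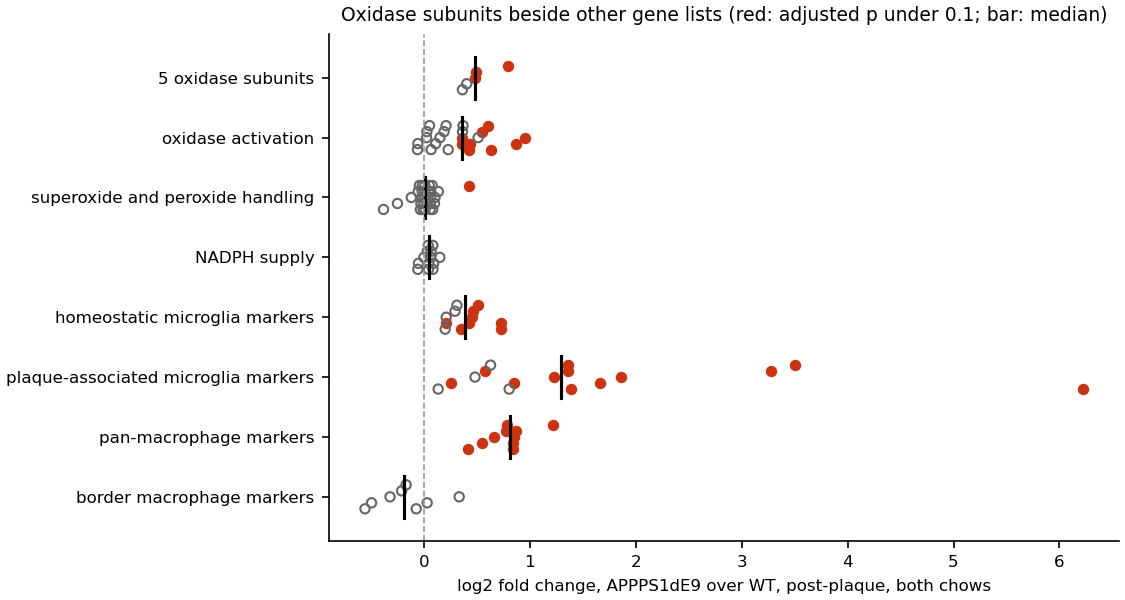
Log2 fold change of APPPS1ΔE9 over WT in the post-plaque cohort, both chows (horizontal axis), for the genes of each list that were tested (rows). Red points passed an adjusted p under 0.1 and bars are list medians, which were 0.48 for the 5 subunits, 0.81 for pan-macrophage markers and 0.01 for superoxide and peroxide handling.

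Markers of macrophages moved with the subunits. In the post-plaque comparison of both chows, 10 of 10 pan-macrophage markers rose, beside 1.43% of all genes called higher (median log2 fold change 0.81), with C1qa, a complement gene, at 0.85 and Fcer1g, a receptor signalling chain, at 0.84. Their summed level was 254 to 337 CPM in WT and 399 to 693 CPM in APPPS1ΔE9 mice, without overlap. Of the homeostatic microglia markers 8 of 12 rose (median 0.39), with summed levels of 382 to 486 CPM in WT and 483 to 740 CPM in APPPS1ΔE9 mice. Of the plaque-associated microglia markers 12 of 16 rose (median 1.29), among them the protease inhibitor gene Cst7 at 6.22 and the receptor gene Clec7a at 3.5. With the Xist libraries left out 9 of 10 pan-macrophage, 6 of 12 homeostatic and 11 of 16 plaque-associated markers rose. None of the markers in these 3 lists was at 0 throughout a post-plaque group. The part of macrophage number in the subunit levels was not tested.

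The subunits were also set against these markers mouse by mouse, as the log2 CPM of a gene minus the mean log2 CPM of the list, as a description without a test. Relative to pan-macrophage markers, Ncf1 was at -1.72 ± 0.105 in post-plaque APPPS1ΔE9 (SD, n = 12) and -1.42 ± 0.155 in WT mice (SD, n = 10), and 11 of 12 APPPS1ΔE9 mice lay below every WT mouse. Rac2 was lower by 0.39 on that scale, Ncf4 by 0.38 and Cyba by 0.27, with 10, 3 and 6 of 12 APPPS1ΔE9 mice below every WT mouse. Cybb differed by 0.02, with 0 of 12 below every WT mouse. Relative to homeostatic microglia markers the differences were 0.09 for Cyba, 0.06 for Ncf1, -0.02 for Ncf4 and -0.03 for Rac2, and 0.39 for Cybb. Relative to plaque-associated markers all 5 were lower in APPPS1ΔE9 mice, by 0.75 for Cybb to 1.16 for Rac2. Without the libraries that hold Xist RNA (11 against 4 mice), the difference of Cybb was 0.29 relative to pan-macrophage markers and 0.65 relative to homeostatic markers. Those of the other 4 then ran from -0.46 to -0.28 relative to pan-macrophage markers and from -0.11 to 0.08 relative to homeostatic markers.

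Markers of other cells that carry the oxidase were sparse for neutrophils and lymphocytes, and less so for border macrophages and monocytes. Of 13 neutrophil markers 4 were tested and 1 rose, the cytokine receptor gene Csf3r (log2 fold change 0.94), which microglia also express. The summed neutrophil list was 8.16 to 11 CPM in post-plaque WT and 13.4 to 21.9 CPM in APPPS1ΔE9 mice. Csf3r alone had a mean of 8.98 CPM over the 38 mice, a large part of that sum. Mmp9, also on the list, had a log2 fold change of -0.10 and did not pass by edgeR. Ly6g was at 0 in each anle138b-fed post-plaque mouse. Of the border macrophage markers 0 of 8 passed by edgeR, of the monocyte markers 0 of 2 tested and of the lymphocyte markers 0 of 2 tested. Choroid plexus markers varied between 32.4 and 4365 CPM among post-plaque APPPS1ΔE9 mice and 0 of 6 passed by edgeR. In the pre-plaque comparison of both chows 0 of 10 pan-macrophage, 0 of 12 homeostatic and 3 of 16 plaque-associated markers rose, the last being Cst7, Clec7a and Itgax, beside 0.172% of all genes called. With the Xist libraries left out 1 of 16 rose, Cst7.

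Within groups the subunits varied together to differing degrees, given here as Pearson's r over the 38 mice after each group's mean was subtracted. Cyba had r = 0.57 with Cybb and 0.54 with Ncf1, while Cybb had 0.28 with Ncf1 and 0.10 with Ncf4. Cyba and Rac2 had r = 0.28, and 0.59 without the library that stands apart. Low counts of Cybb and Ncf4 add counting error to their values. The 6 other genes that varied most like the mean of the 5 subunits, of 15008 at a mean of 1 CPM or more, were Ctsz (r = 0.85), Unc93b1 (0.79), Arhgap45 (0.78), Tlr2 (0.78), Ctsh (0.78) and H2-K1 (0.77). Ctsz and Ctsh encode lysosomal cathepsins, Unc93b1 a chaperone of endosomal Toll-like receptors, Tlr2 such a receptor of the cell surface and H2-K1 a classical histocompatibility antigen.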

How the data were processed

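Hippocampal TruSeq mRNA libraries of 38 mice were sequenced by the authors, mapped to mm10 with STAR and assigned to genes by HTSeq (intersection-nonempty). The deposited values are raw read counts per gene, 1 file per mouse, without normalization. The annotation release and strand setting are not given in the sources used here. Groups and lanes were taken from the sample titles. Each mouse is a separate sample, and 75 within-group pairs of libraries all differed by more than counting error.

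Counts were filtered with filterByExpr (minimum count 10, minimum total 15), normalised by TMM and tested with edgeR 4.0.16 in R 4.3.3 (quasi-likelihood test, robust). Benjamini-Hochberg adjustment ran over all genes tested, at 0.1. Pairwise comparisons used the groups compared, with additive chow or interaction terms where 4 groups were needed, 14 comparisons in all. Intervals are 95% from the fitted SE. CPM are TMM-normalised over all libraries, and log2 CPM used a prior count of 2. The steps were tested on simulated data, with changes set in genes drawn from all those tested. In the post-plaque comparison of both chows, 62% of genes changed by 0.5 on the log2 scale were recovered, and 90% of those changed by 1. With placebo chow alone these were 39% and 85%. The simulation held no effect of chow, lane or sex, and recovery at the counts of the subunits was not examined separately. Totals of 15847985 to 31895808 counts left low counts per subunit, and intervals do not cover sources beyond these mice. Alternatives were DESeq2 1.42.0, RLE factors, no filter, a threshold of 0.05, Y-linked expression as a covariate, all 4 groups of a cohort, single lanes, a replicate block and each mouse left out.

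Named genes were the 5 subunits, other oxidase genes, App, up to 4 genes of each list with the smallest p in the post-plaque placebo comparison, and the 6 genes most like the subunits. The genes of counts of 5 or fewer that this rule does not name were chosen after their values were seen. The members and lists were chosen with earlier results of these data known. Results for some related genes are not reported here.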

Additional observations from a re-analysis of the deposited data

Results flagged for a closer look

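A sample far from the others of its group was found in 2 of the 40 sets formed by 5 genes and 8 groups, by the ratio of the highest or lowest mouse's gap to the range of its group, and chance alone flags about 1 in 20 sets. Both concern Rac2 in pre-plaque WT mice. Replicate 2 of the mice fed anle138b had 8.76 CPM, against 2.33 to 2.86 CPM in the other 3, and it is the library with 0.737% of its counts on pseudogenes. Replicate 1 of the mice fed placebo had 3.25 CPM, against 2.50 to 2.57 CPM in the other 3. No interaction test of a subunit passed its threshold, with a lowest adjusted p of 0.62 over 20 edgeR tests.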

How the results depend on the processing

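The 3 genes called in the post-plaque comparison of both chows stayed at 3 with RLE factors, no filter, a threshold of 0.05 and the Y-linked covariate. Of all genes 272, 263, 217 and 289 were called there, in that order, and 275 in the main fit. Without the filter 34136 genes were tested, and 17668 in the others. The count was 1 without the libraries with Xist RNA, an alternative chosen after seeing the data. There 0.778% of all genes were called, against 1.56% with all mice. With each mouse left out it was 3 to 4, with Rac2 added without post-plaque WT anle138b replicate 3 or APPPS1ΔE9 anle138b replicate 4. The replicate numbers did not pair the mice, since same-numbered mice deviated together with r of -0.55 to 0.62 in that comparison (mean 0.11). With the number as a replicate block 2 of the 5 genes passed there (Cybb at an edgeR adjusted p of 0.12), beside 233 of all 17668 genes. In the post-plaque anle138b comparison of genotypes the count rose from 0 to 1 with DESeq2, the Y-linked covariate and all 4 groups in the fit. All genes called rose as well, from 124 to 189, 269 and 158 in that order. With each mouse left out the count of the 5 was 0 to 1. The cause was not tested. Reversals were of estimates that had passed no threshold. In post-plaque APPPS1ΔE9 mice the chow estimates became -0.0206 for Cyba, -0.0718 for Cybb and -0.0191 for Ncf1 with the Y-linked covariate, and -0.0722 for Cyba with the replicate block. On lane 5, with 1 mouse fed anle138b and 5 fed placebo, that of Cybb became -0.12. On lane 4 the chow estimates became 0.17 for Cybb and 0.0095 for Ncf1 in post-plaque WT mice (5 fed anle138b, 1 fed placebo). They became 0.002 for Cyba and -0.0303 for Ncf1 in pre-plaque WT mice of that lane (2 fed anle138b, 4 fed placebo). With the Y-linked covariate they became -0.0437 for Ncf4 in pre-plaque APPPS1ΔE9 and 0.0337 for Cyba in pre-plaque WT mice. With each mouse left out, log2 estimates crossed 0 for the following. Chow in post-plaque APPPS1ΔE9 ran from -0.0429 to 0.10 for Cyba, -0.0805 to 0.12 for Cybb and -0.0202 to 0.12 for Ncf1. Chow in post-plaque WT ran from -0.16 to 0.0292 for Cyba and -0.42 to 0.0597 for Cybb, and in pre-plaque APPPS1ΔE9 from -0.0379 to 0.26 for Ncf4. Chow in pre-plaque WT ran from -0.12 to 0.0731 for Cyba, -0.11 to 0.19 for Cybb, -0.0697 to 0.0541 for Ncf1, -0.0879 to 0.45 for Ncf4 and -0.0525 to 0.82 for Rac2. Genotype with anle138b in pre-plaque mice ran from -0.0023 to 0.19 for Cyba and -0.0702 to 0.0575 for Ncf1, and genotype with both chows from -0.33 to 0.14 for Rac2. In that last comparison, without both the libraries with Xist RNA and the library that stands apart (chosen after seeing the data), Ncf1 was at -0.0051 and Rac2 at 0.1641. The counts of Cybb and Ncf4, 9 to 62 per mouse, limit what could be detected for these genes.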

Other observations

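Rac3, the neuronal relative of Rac2, varied against the 5 subunits within groups, with Pearson's r = -0.65 and Spearman's rho = -0.70 over the 38 mice after group means were subtracted, while Rac1 had r = 0.39 and Cybc1 r = 0.00. The points share library depth and composition, and this is a description. Rac3 ranged from 12.5 to 24.9 CPM over all mice and Rac1 from 160 to 198 CPM.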
